A study of Homo sapiens with 24 samples.

Results

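This comparison sets HEK293A cells labelled LATS1/2-dKO against HEK293A cells labelled YAP/TAZ-dKO, both seeded on a stiff hydrogel of 40 kPa. It rests on 6 of the 24 mRNA libraries of the series, 3 of each line, chosen by their labels alone. The lines are called LATS dKO and YAP/TAZ dKO here. HEK293A is an established human line of embryonic kidney origin that grows attached to its dish. All 6 cultures shared the parental line, DMEM with 10% FBS and a fibronectin coat on the gel. The series asked how expression follows matrix stiffness, and it also holds both lines on a soft gel of 1 kPa, WT cells and cells labelled RAP2A/B/C-tKO, again with 3 libraries a group. Its design text calls the 3 libraries of a group biological replicates. The sources used here do not give the editing method or the number of clones per line, so a genotype cannot be told apart from the line that carries it.

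The Hippo kinases LATS1 and LATS2 phosphorylate YAP and TAZ, which keeps these coactivators out of the nucleus and marks them for breakdown. YAP and TAZ that escape this enter the nucleus and switch genes on mainly through the DNA-binding TEAD factors. A stiff matrix is known to favour nuclear YAP and TAZ, and cells without LATS1 and LATS2 lose the main brake on them, whereas cells without YAP and TAZ lack the coactivators themselves.

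Expression was read as FPKM, fragment numbers scaled by transcript length and by the size of the library, as the authors deposited it. The 6 libraries held an estimated 18.84 to 35.8 M fragments, and LATS dKO replicate 1 was the shallowest. Of 58266 gene symbols, 14383 had an FPKM of at least 1 in 3 or more of the 6 libraries and were tested. Differences are LATS dKO minus YAP/TAZ dKO on log2(FPKM + 1), a scale that understates the change of low genes. A gene is called where its limma p, adjusted by Benjamini-Hochberg over all genes tested, is below 0.05. LATS dKO replicate 1 stood apart from its group: the deviations of its genes from the group mean had a rank correlation of -0.596 with their GC content, against 0.496 and 0.41 in LATS dKO replicates 2 and 3 and -0.119 to 0.066 in the YAP/TAZ dKO libraries. Deviations within a group cancel out, so a skew in replicate 1 pushes the other replicates the opposite way. Set against the line's own soft-gel mean, the rank correlations were -0.608, 0.158 and 0.029 in LATS dKO replicates 1, 2 and 3. They were -0.269 to -0.179 in the YAP/TAZ dKO libraries. Counts of the gene lists are given with and without it where they differ. Each value is a mean over the cells of a library, so fewer cells of a type and less RNA per cell cannot be told apart.

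The RNA of the 4 edited genes was read first. YAP1 encodes YAP itself (ENSG00000137693.13, hg19 chromosome 11, 101981192 to 102104154), and its RNA had 34.7, 34.5 and 29.4 FPKM in LATS dKO, against 6.78, 6.32 and 5.49 FPKM in YAP/TAZ dKO. WWTR1, the gene of TAZ, had 20.6, 24 and 21.1 FPKM in LATS dKO and 10.1, 11.5 and 10.6 FPKM in YAP/TAZ dKO. LATS1 had 5.41, 6 and 5.66 FPKM in LATS dKO, against 14.7, 13.8 and 14.2 FPKM in YAP/TAZ dKO. For these 3 genes the groups did not overlap, the line edited in the gene was the lower one, and the differences of 2.23, 0.96 and -1.19 (SE 0.08, 0.11 and 0.08) were called. WWTR1 and YAP1 lie in stretches of chromosomes 3 and 11 that were shifted as a whole, described at the end. Window medians there ran from 0.48 to 0.79 on chromosome 3 and from 0.39 to 0.49 on chromosome 11. Whether the lower WWTR1 level belongs to the edit or to its stretch was not tested. LATS2 ran the other way, with 2.49, 3.84 and 3.88 FPKM in LATS dKO and 1.56, 0.592 and 0.762 FPKM in YAP/TAZ dKO, a difference of 1.17 (SE 0.20, limma adjusted p = 6.73e-05). LATS2 is itself a known target of YAP and TAZ, and WT cells on the stiff gel had 2.78 ± 0.738 FPKM (SD, n = 3). RNA of all 4 genes was still present in the line edited in them, and an RNA level does not show whether protein is made.

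The line's own markers and those of other cell types were then checked. KRT8, KRT18, VIM and CDH2 were present in all 6 libraries, while NEFM stayed at or below 0.0255 FPKM in each. NEFL was present in all 6 and is described further on. PAX2, a kidney factor, did not pass the filter, with 0.176, 0.0579 and 0.124 FPKM in LATS dKO and 0.917, 1.14 and 1.02 FPKM in YAP/TAZ dKO. Of 10 immune markers 1 (CD68) passed the filter on low values. Of 8 endothelial markers PECAM1 had no usable values, and none of the other 7 passed. The summed immune markers ranged from 3.31 to 4.6 FPKM in LATS dKO and from 4.11 to 4.57 FPKM in YAP/TAZ dKO. Fibroblast markers moved with the line: their sum ranged from 23.1 to 27.2 FPKM in LATS dKO and from 6.14 to 7.57 FPKM in YAP/TAZ dKO. That gap came from COL3A1 and LUM, since COL1A1 was not called and DCN and COL1A2 were at or near 0 FPKM.

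The lines differed at much of the transcriptome. Of 14383 genes tested, 7220 (50.2%) were called, with 3630 (25.2%) higher and 3590 (25.0%) lower in LATS dKO. The median difference over all genes tested was -0.03. By 2-fold or more, 539 genes were higher and 446 lower in LATS dKO, and by 4-fold or more 121 were higher and 71 lower. Of those 985 genes the 3 and 3 values overlapped for 5, and 970 had a difference of the same sign on the soft gel. Among all 14383 genes tested, 7888 had values that did not overlap between the lines. Without LATS dKO replicate 1, 6834 genes were called, and 6174 of them were also called with it.

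**Figure D1:**
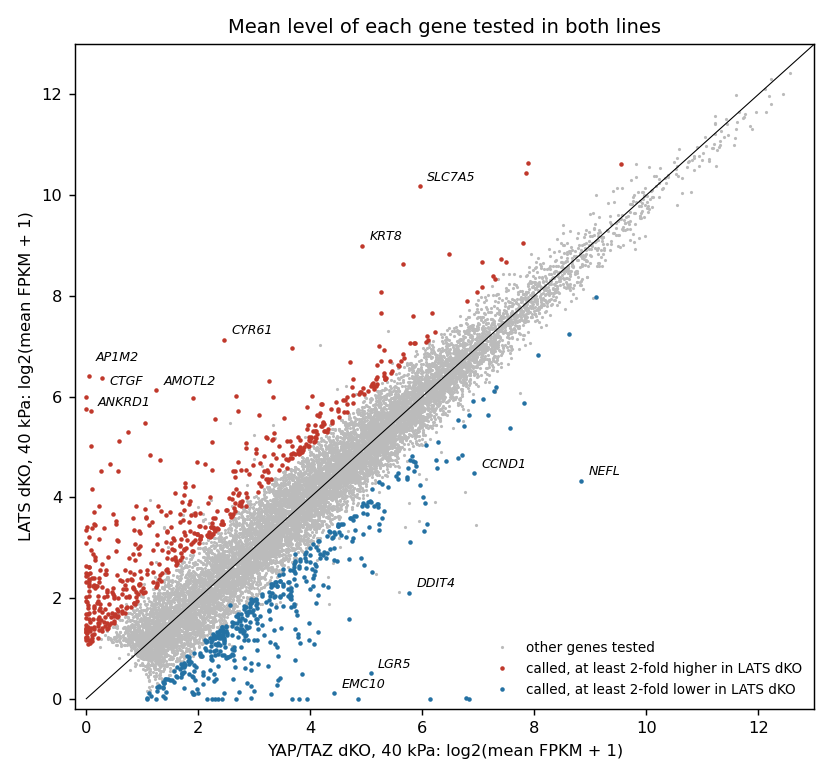
Mean level of each of the 14383 genes tested, YAP/TAZ dKO on the x axis and LATS dKO on the y axis, both as log2(mean FPKM + 1) on the 40 kPa gel. Red points are the 539 genes called and at least 2-fold higher in LATS dKO, blue points the 446 called and at least 2-fold lower, and the line marks equal levels.

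The genes best known as YAP and TAZ targets had wide gaps. CTGF (CCN2) encodes a secreted matrix-associated protein (ENSG00000118523.5, hg19 chromosome 6, 132269316 to 132272513). It had 77.8, 84.1 and 83.0 FPKM in LATS dKO, against 0.278, 0.235 and 0.152 FPKM in YAP/TAZ dKO. The groups did not overlap, the means differed 368.6-fold, and the difference of 6.08 (SE 0.05, limma adjusted p = 4.15e-23) had the smallest p named here. WT cells lay between, at 22.5 ± 0.880 FPKM (SD, n = 3). ANKRD1, a nuclear ankyrin-repeat protein of muscle and stretched cells (ENSG00000148677.6, chromosome 10, 92671853 to 92681033), had 58.0, 45.8 and 49.7 FPKM in LATS dKO. In YAP/TAZ dKO it had 0.0501, 0.0784 and 0.0332 FPKM, values that rest on an implied 2 to 5 fragments a library. Its difference was 5.62 (SE 0.10, limma adjusted p = 1.18e-18), and WT had 4.02 ± 0.0673 FPKM, nearer to YAP/TAZ dKO. CYR61 (CCN1), a second secreted CCN protein (ENSG00000142871.15, chromosome 1, 86046444 to 86049645), had 115, 155.6 and 145.8 FPKM in LATS dKO and 4.42, 4.62 and 4.42 FPKM in YAP/TAZ dKO. The means differed 30.9-fold (4.66, SE 0.09, limma adjusted p = 2.96e-18), with WT at 30.5 ± 2.19 FPKM.

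The promoters of 3 genes of this kind are shown because they are the named genes with more than 1 TEAD match. They are given from RefSeq (GRCh38.p14), read 5′ to 3′ on the gene's strand, from 250 bases before the annotated start to 50 after it, in lower case with the TEAD motif GGAATG or its reverse complement CATTCC in capitals. CTGF is on the minus strand at chr6:131951323-131951622, ANKRD1 on the minus strand at chr10:90921038-90921337, and WTIP, a LIM protein that binds LATS kinases and is described further on, on the plus strand at chr19:34481508-34481807.
CTGF: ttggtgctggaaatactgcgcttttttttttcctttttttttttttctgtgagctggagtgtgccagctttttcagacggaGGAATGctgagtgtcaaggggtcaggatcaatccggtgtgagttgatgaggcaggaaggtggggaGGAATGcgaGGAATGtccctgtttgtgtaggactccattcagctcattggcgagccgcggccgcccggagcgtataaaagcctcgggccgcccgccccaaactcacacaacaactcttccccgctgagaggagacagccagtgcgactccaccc
ANKRD1: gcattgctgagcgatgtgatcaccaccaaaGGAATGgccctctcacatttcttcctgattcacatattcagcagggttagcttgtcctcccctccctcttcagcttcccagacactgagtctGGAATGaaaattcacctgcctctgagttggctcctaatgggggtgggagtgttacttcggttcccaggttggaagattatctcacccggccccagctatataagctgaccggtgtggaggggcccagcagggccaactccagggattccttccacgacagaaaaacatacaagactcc
WTIP: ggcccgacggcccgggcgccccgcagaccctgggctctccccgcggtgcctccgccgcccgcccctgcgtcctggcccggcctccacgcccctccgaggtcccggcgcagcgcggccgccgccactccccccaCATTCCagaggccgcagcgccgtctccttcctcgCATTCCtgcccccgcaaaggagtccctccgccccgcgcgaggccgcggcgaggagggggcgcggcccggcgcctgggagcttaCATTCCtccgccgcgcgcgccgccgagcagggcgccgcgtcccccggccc
CTGF holds 3 matches, the first bases of which lie 169, 104 and 95 bases before the start, and ANKRD1 holds 2, at 220 and 128 bases before it. WTIP holds 3 matches. Among the named genes 122 of 178 matched the promoter table by symbol, and CYR61 is named without a sequence. Of these 122 promoters 19 held a match and 103 none. Among 13 tested targets with a promoter 6 held one, FOXF2 with its lower level included, and 7 none, AMOTL2, MYOF, CCDC80 and IGFBP3 among them. AJUBA, CAV1 and AP1M2 held none, and MDGA1, which was lower in LATS dKO, held 1.

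Over all 27305 promoters of that length, 14% held GGAATG on either strand. Among tested genes with a promoter, 10.5% of 10212 did. The share was 15.4% of 383 genes at least 2-fold higher and 9.29% of 280 genes at least 2-fold lower in LATS dKO. At 4-fold it was 21.3% of 75 higher genes and 12.1% of 33 lower genes. A motif of AP-1, TGANTCA, which was counted on both strands and independently of GGAATG, stood in 7.76% of all promoters and in 4.07% of the tested genes. It stood in 6.27% of the genes at least 2-fold higher and 6.79% of those at least 2-fold lower, and at 4-fold in 8% of higher and 6.06% of lower genes. The AP-1 share was thus above that of the tested genes on both sides. These are counts of letters, with no test, and do not show binding.

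AMOTL2, an angiomotin family member that binds YAP and holds it at junctions (ENSG00000114019.14, chromosome 3, 134074716 to 134094321), had 50.5, 81.5 and 73.9 FPKM in LATS dKO. In YAP/TAZ dKO it had 1.42, 1.16 and 1.56 FPKM, a 49.8-fold gap of the means (4.85, SE 0.19, limma adjusted p = 1.78e-13). It lies in a stretch of chromosome 3 where most genes were higher in LATS dKO, described at the end. The plot of 12 genes by library shows these 4 targets beside genes that were lower in LATS dKO.

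**Figure D2:**
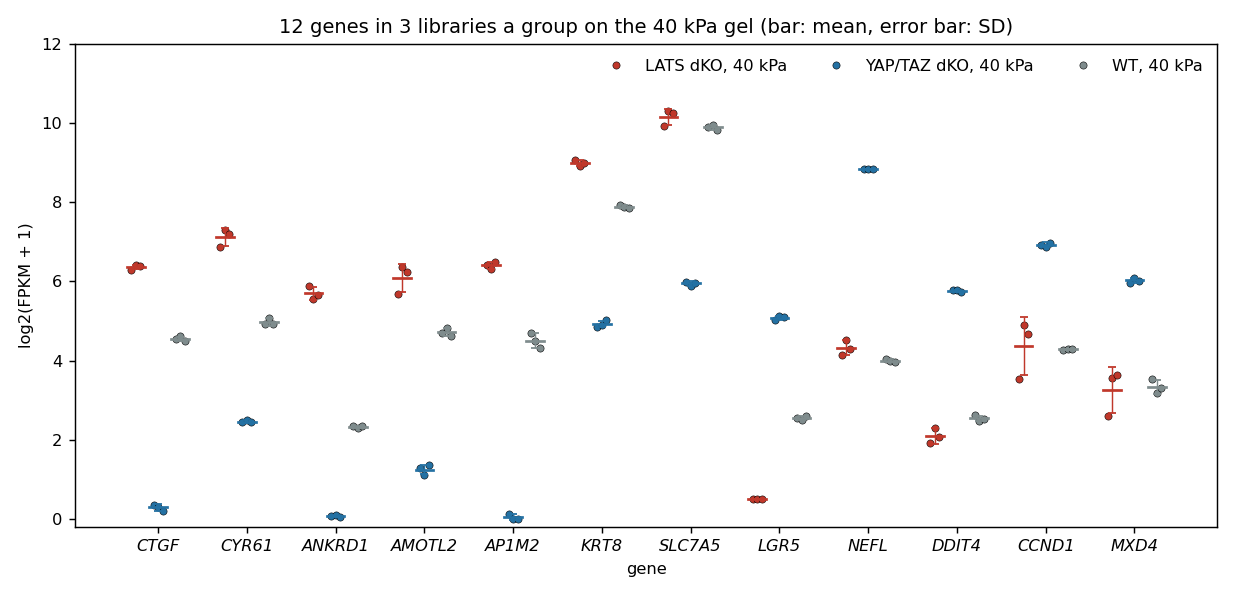
Level of 12 genes as log2(FPKM + 1) on the 40 kPa gel, for LATS dKO, YAP/TAZ dKO and WT from left to right at each gene. Points are the 3 libraries of a group, bars the mean and error bars the SD. The first 7 genes are higher in LATS dKO and the last 5 lower, with no overlap between LATS dKO and YAP/TAZ dKO at any of the 12.

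A list of 22 YAP/TAZ-TEAD target genes had 19 members tested, of which 15 were higher in LATS dKO, 1 lower and 3 not called, with a median difference of 1.24 beside -0.03 for all genes tested. The same counts held without LATS dKO replicate 1. AXL, NT5E and NUAK2 did not pass the filter on low values. CRIM1, a transmembrane protein that binds BMPs, had 21.9, 41.3 and 39.5 FPKM in LATS dKO and 8.39, 11 and 7.61 FPKM in YAP/TAZ dKO (1.78, SE 0.22). ARHGEF17, a RhoA exchange factor, had 15.1, 26.5 and 24.5 FPKM in LATS dKO and 4.69, 4.35 and 6.84 FPKM in YAP/TAZ dKO (1.86, SE 0.22). Replicate 1 was the lowest of the LATS dKO libraries at CRIM1 and ARHGEF17, as it was at CYR61 and AMOTL2, yet stayed above every YAP/TAZ dKO library. MYOF, CCDC80, TGFB2, IGFBP3, F3, FJX1, PTPN14 and RBMS3 were called with differences between 0.88 (RBMS3) and 2.34 (CCDC80).

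FOXF2, a forkhead factor of mesenchyme, was the member that went the other way, with 7.58, 8.83 and 7.92 FPKM in LATS dKO and 19.2, 19.3 and 21 FPKM in YAP/TAZ dKO (-1.19, SE 0.07). WT had 10.1 ± 0.689 FPKM. ASAP1 averaged 39.3 FPKM in LATS dKO and 40.3 FPKM in YAP/TAZ dKO, and DOCK5 averaged 5.86 FPKM and 6.48 FPKM in the same order. GADD45A, with 13.4 FPKM in LATS dKO and 11.4 FPKM in YAP/TAZ dKO, was at limma adjusted p = 0.0533, and over the alternatives its p fell on either side of the threshold.

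Among 34 tested genes of the Hippo pathway and its inputs, 19 were higher in LATS dKO, 5 lower and 10 not called (median 0.27). These counts include the 4 edited genes, of which 3 were called higher and 1 lower. AMOTL2, LATS2 and PTPN14 are also members of the list of targets. The TEAD factors did not move as one. TEAD1 had 31.1, 34.2 and 35.9 FPKM in LATS dKO, against 11.4, 10.2 and 11.4 FPKM in YAP/TAZ dKO (1.53, SE 0.07). TEAD4 was also called higher (0.82) and TEAD2 lower (-0.61), while TEAD3 was not called (-0.18). The LIM proteins AJUBA and WTIP, which bind and restrain LATS kinases, were both higher in LATS dKO. AJUBA had 55.4, 64.6 and 71.6 FPKM in LATS dKO and 4.40, 5.95 and 5.76 FPKM in YAP/TAZ dKO, an 11.9-fold gap (3.35, SE 0.12). WTIP had 8.10, 11.2 and 12 FPKM in LATS dKO and 2.30, 2.10 and 2.23 FPKM in YAP/TAZ dKO (1.82, SE 0.11). The third protein of that family, LIMD1, was slightly lower in LATS dKO (-0.22). The upstream kinases STK3 and STK4, known as MST2 and MST1, were not called, with differences of -0.05 and 0.01. Angiomotins split as well: AMOTL1 was higher (1.05) beside AMOTL2, and AMOT was not called (0.29). Of the 34 genes 10 lie in the shifted chromosome stretches described at the end, TEAD1, TEAD2, AMOT, AMOTL1 and AMOTL2 among them. Outside these stretches 12 of 24 were higher and 4 lower (median 0.18).

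Beyond the list of targets, the rule for the largest differences named 15 genes on each side. AP1M2, the clathrin adaptor subunit that epithelial cells use for basolateral sorting (ENSG00000129354.11, chromosome 19, 10683347 to 10697991), had the largest gap. It had 84.4, 78.9 and 89.3 FPKM in LATS dKO, against 0.0965, 0 and 0 FPKM in YAP/TAZ dKO and 21.8 ± 3.04 FPKM in WT (6.37, SE 0.13, limma adjusted p = 1.18e-17). KRT8, a keratin of simple epithelia (ENSG00000170421.12, chromosome 12, 53290971 to 53343738), had 536.4, 478.8 and 510.1 FPKM in LATS dKO and 28.0, 28.6 and 31.4 FPKM in YAP/TAZ dKO. That is a 17.3-fold gap (4.07, SE 0.06). Its partner KRT18 averaged 395.2 ± 23.1 FPKM in LATS dKO and 49.2 ± 2.99 FPKM in YAP/TAZ dKO (2.98). KRT19 had 28.5, 30.8 and 34.6 FPKM in LATS dKO and was at 0, 0.191 and 0 FPKM in YAP/TAZ dKO (4.92, SE 0.16).

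Of 15 epithelial genes tested, 11 were higher in LATS dKO and 2 lower (median 0.84), and 12 were higher and 2 lower without LATS dKO replicate 1. The junction gene OCLN, in a shifted stretch, was among them at 0.84. The classical epithelial genes CDH1 and EPCAM did not pass the filter: CDH1 averaged 0.364 FPKM in LATS dKO and 0.0261 FPKM in YAP/TAZ dKO, and EPCAM 0.0767 and 0.0141 FPKM in that order. GRHL1 and DSP were the members lower in LATS dKO (-0.99 and -0.35). Of 16 mesenchymal genes, 5 were higher and 4 lower (median -0.03), and without LATS dKO replicate 1 4 were higher and 2 lower (median 0.08). VIM was higher (0.77), SNAI2 lower (-0.94), and CDH2, ZEB1 and FN1 were not called.

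The reverse held for many neuronal genes. NEFL, the light neurofilament subunit that HEK293 lines are known to carry (ENSG00000277586.1, chromosome 8, 24808468 to 24814624), had 16.7, 22 and 18.7 FPKM in LATS dKO. In YAP/TAZ dKO it had 457.3, 456.6 and 455.9 FPKM, a 23.9-fold gap (-4.52, SE 0.08, limma adjusted p = 1.56e-18). WT, at 15 ± 0.439 FPKM, stood with LATS dKO. POU3F2, a neural POU-domain factor, had 0.719, 0.694 and 0.674 FPKM in LATS dKO and 12.5, 12.6 and 11.8 FPKM in YAP/TAZ dKO (-2.97, SE 0.06). SOX11, a factor of immature neurons, averaged 0.0889 ± 0.00586 FPKM in LATS dKO and 4.49 ± 0.113 FPKM in YAP/TAZ dKO (-2.33). Of 15 neuronal genes tested, 4 were higher in LATS dKO and 8 lower (median -0.50), against 4 and 6 without LATS dKO replicate 1 (median -0.28). The 4 higher ones, GAP43, GATA2, ISL1 and L1CAM, of which GATA2 overlapped between the lines, all lie in chromosome stretches that were shifted as a whole. Most of the list was not expressed: 24 of its 39 members failed the filter, NEFM, NEFH, INA, DCX and STMN2 among them at or near 0.

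**Figure D3:**
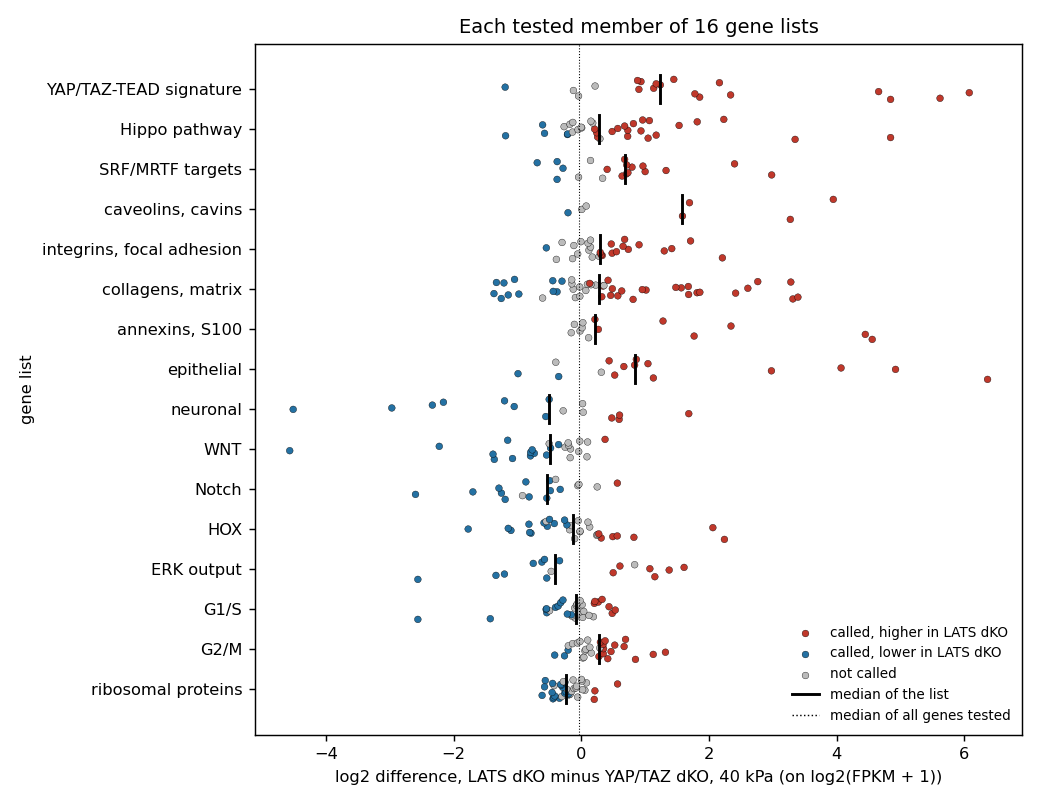
Log2 difference, LATS dKO minus YAP/TAZ dKO on the 40 kPa gel, of each tested member of 16 gene lists. Points are genes, coloured where called, black bars are list medians and the dotted line is the median of all genes tested, -0.03. The target signature, the caveolins and the epithelial genes lie mostly to the right, and the neuronal, WNT and Notch genes mostly to the left.

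Cytoskeletal and adhesion genes that were called were more often higher than lower in LATS dKO. Of 19 tested targets of SRF and MRTF, the factors that read the actin state of the cell, 12 were higher and 4 lower (median 0.68). Outside the shifted chromosome stretches described at the end, 7 of 13 were higher and 4 lower (median 0.41). Of all 10739 genes tested outside them, 2007 were higher and 2887 lower (median -0.07). TPM1, a tropomyosin, had 219.7, 178.5 and 206.6 FPKM in LATS dKO and 37.9, 37.1 and 36.6 FPKM in YAP/TAZ dKO (2.4, SE 0.10), with WT at 44.1 ± 4.77 FPKM. CNN2, a calponin that binds actin, had 40.0, 55.1 and 58.3 FPKM in LATS dKO and 5.83, 5.70 and 5.02 FPKM in YAP/TAZ dKO (2.98, SE 0.14). These 2 genes did not overlap between the lines. Other members went against the list: TPM2, TPM4, ACTA2 and SRF itself were called lower, by -0.29 (SRF) to -0.69 (TPM2), and without LATS dKO replicate 1 the counts were 13 higher and 2 lower. The major actin genes ACTB and ACTG1 were not called (0.33 and -0.04).

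Caveolae, the small membrane pits that flatten under tension, are built from caveolins and cavins. CAV1 had 44.0, 46.5 and 47.9 FPKM in LATS dKO and 3.32, 3.87 and 4.47 FPKM in YAP/TAZ dKO, an 11.9-fold gap (3.28, SE 0.08). PTRF, the gene of cavin-1, had 19.5, 23.5 and 22.5 FPKM in LATS dKO and 0.483, 0.468 and 0.472 FPKM in YAP/TAZ dKO, a 46.0-fold gap (3.95, SE 0.08). CAV2 (1.59) and PRKCDBP, the gene of cavin-3 (1.70), were higher too. WT had 34.5 ± 0.897 FPKM of CAV1 and 12.8 ± 0.0848 FPKM of PTRF. CAV1 and CAV2 lie side by side on chromosome 7 in a stretch with a median difference of about 0.42, which is far smaller than their own gaps. MURC, the gene of cavin-4, was lower by -0.21, but that call was lost in 10 of the alternatives, and PACSIN2 and PACSIN3 were not called.

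Of 27 genes of integrins and focal adhesions, 14 were higher in LATS dKO and 1, PDLIM7, lower (median 0.30), and PDLIM7 was not called without LATS dKO replicate 1. ITGA1, the α subunit of a collagen receptor, had 14.4, 11.6 and 10.4 FPKM in LATS dKO and 2.01, 1.54 and 1.91 FPKM in YAP/TAZ dKO (2.21, SE 0.16). TNS3, a tensin that links integrins to actin, had 13.1, 13.3 and 14.8 FPKM in LATS dKO and 3.31, 3.49 and 3.69 FPKM in YAP/TAZ dKO (1.71, SE 0.07). Subunits of the fibronectin receptors differed far less: ITGB1, ITGA5 and ITGAV were higher by 0.30, 0.31 and 0.48. The kinase PTK2 (FAK) and the adaptors VCL and TLN1 were not called. Outside the shifted stretches 8 of 20 members were higher and 1 lower. The share of the list that was called, 55.6%, was near the 50.2% of all genes tested.

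Matrix genes moved in both directions: 23 of 46 were higher in LATS dKO and 11 lower (median 0.27). Outside the shifted stretches 16 of 36 were higher and 9 lower (median 0.11). SPARC, a matricellular protein, had 104.5, 126.2 and 139.5 FPKM in LATS dKO and 12, 10.5 and 12.7 FPKM in YAP/TAZ dKO, a 10.5-fold gap (3.28, SE 0.10), with WT at 106.0 ± 3.69 FPKM. COL12A1, a collagen that decorates fibrils, had 11, 8.21 and 11.1 FPKM in LATS dKO and 0.126, 0.139 and 0.0501 FPKM in YAP/TAZ dKO (3.32, SE 0.14). COL3A1 had 10.1, 10.3 and 8.48 FPKM in LATS dKO and 0.0167, 0 and 0 FPKM in YAP/TAZ dKO (3.39, SE 0.09). WT was low for both of these collagens, at 0.682 ± 0.260 FPKM and 0.285 ± 0.134 FPKM. Fibronectin (FN1) and COL1A1 were not called. The 11 lower genes included COL6A2, COL6A1 and COL5A1, by -1.37, -0.98 and -1.14; these 3 were picked out after their values were seen, and without LATS dKO replicate 1 the count of lower genes was 9.

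Annexins and S100 proteins bind calcium and pair up at membranes. Of 13 tested, 7 were higher in LATS dKO and none lower. ANXA1 had 42.2, 35.7 and 37.3 FPKM in LATS dKO and 0.673, 0.602 and 0.725 FPKM in YAP/TAZ dKO (4.56, SE 0.09, limma adjusted p = 5.04e-18). ANXA3 had 48.3, 40.3 and 42.4 FPKM in LATS dKO and 1.24, 0.560 and 1.42 FPKM in YAP/TAZ dKO (4.45, SE 0.19). S100A10 and its partner ANXA2 were both higher, with means of 452.3 and 194.2 FPKM in LATS dKO and 88.2 and 56.2 FPKM in YAP/TAZ dKO (2.35 and 1.77). The 6 not called, ANXA4, ANXA5, ANXA7, ANXA11, S100A11 and S100A13, all lay within 0.16 of 0, and none of the 13 lies in a shifted stretch.

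The remaining genes of the 15 highest were of mixed function. GPRC5A, an orphan G protein-coupled receptor, averaged 33.7 FPKM in LATS dKO and 0.489 FPKM in YAP/TAZ dKO (4.54). TNNC1, a troponin C of heart and slow muscle, averaged 24.2 and 0.341 FPKM in the same order (4.23). BST2 (tetherin), which holds virus particles at the cell surface, had 59.7, 61.5 and 64.9 FPKM in LATS dKO and 2.96, 2.72 and 2.53 FPKM in YAP/TAZ dKO (4.08, SE 0.07). The transcript listed as WFDC21P averaged 22 FPKM in LATS dKO and 0.194 FPKM in YAP/TAZ dKO (4.26). That the values of these 4 genes did not overlap between the lines was a condition of the rule that named them.

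SLC7A5 (LAT1), which imports large neutral amino acids, was by far the most abundant of the 15 (ENSG00000103257.8, chromosome 16, 87863629 to 87903094). It had 972.9, 1257 and 1230 FPKM in LATS dKO and 62.8, 57.7 and 61.8 FPKM in YAP/TAZ dKO, a 19.0-fold gap (4.22, SE 0.15, limma adjusted p = 6.5e-14). SLC3A2, the heavy chain that carries LAT1 to the membrane, had 1393, 1314 and 1468 FPKM in LATS dKO and 218.2, 220.2 and 254.9 FPKM in YAP/TAZ dKO (2.59, SE 0.07). WT was high for both, at 949.4 ± 36.6 and 1083 ± 55.2 FPKM. Over 22 amino acid transporters, 8 were higher and 6 lower (median 0.09), and 7 and 5 without LATS dKO replicate 1. Over 28 targets of the stress factor ATF4, which include SLC7A5 and SLC3A2, 11 were higher and 9 lower (median 0.12), against 13 and 7 without LATS dKO replicate 1. Outside the shifted stretches 6 of 21 were higher and 8 lower (median -0.03). ATF4 itself was not called (-0.07).

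DDIT4 (REDD1), an inhibitor of mTORC1 (ENSG00000168209.4, chromosome 10, 74033678 to 74035794), ran the other way. It had 2.75, 3.93 and 3.22 FPKM in LATS dKO and 53.8, 54.2 and 52.5 FPKM in YAP/TAZ dKO, a 16.2-fold gap (-3.67, SE 0.11, limma adjusted p = 3.67e-15). WT had 4.81 ± 0.294 FPKM. SESN2, a leucine sensor that also restrains mTORC1, averaged 9.08 FPKM in LATS dKO and 19.2 FPKM in YAP/TAZ dKO (-1.01).

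LGR5, the R-spondin receptor of WNT-driven stem cells (ENSG00000139292.12, chromosome 12, 71833550 to 71980090), had the largest negative difference. It had 0.424, 0.423 and 0.421 FPKM in LATS dKO and 31.4, 33.7 and 33.3 FPKM in YAP/TAZ dKO (-4.57, SE 0.08, limma adjusted p = 1.29e-18). The width of the deposited bounds in LATS dKO would imply 1 to 3 fragments a library. The LATS dKO values were nearly equal at estimated depths of 18.84, 35.8 and 22.12 M fragments, so this implied number is not reliable here. WT lay between, at 4.89 ± 0.210 FPKM. Of 24 WNT pathway genes tested, 1 was higher in LATS dKO, 13 were lower and 10 not called (median -0.49), and without LATS dKO replicate 1 the counts were 2 and 12 (median -0.29). SFRP1, a secreted WNT antagonist, averaged 0.528 ± 0.139 FPKM in LATS dKO and 6.13 ± 0.172 FPKM in YAP/TAZ dKO (-2.23). FZD7, a frizzled receptor, had 5.55, 8.33 and 6.77 FPKM in LATS dKO and 19.8, 19.3 and 19.0 FPKM in YAP/TAZ dKO (-1.38, SE 0.10). The feedback targets AXIN2 (-1.08) and NKD1 (-0.77) and the factor LEF1 (-0.79) were lower too, and ZNRF3, an E3 ligase that removes frizzleds, was the higher one (0.37).

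Notch genes leaned the same way, with 1 of 17 higher, 11 lower and 5 not called (median -0.54), and 1 higher and 10 lower without LATS dKO replicate 1 (median -0.33). HES5, a direct Notch target, had 0.0850, 0.112 and 0.0727 FPKM in LATS dKO and 5.38, 5.70 and 5.72 FPKM in YAP/TAZ dKO (-2.60, SE 0.08). HEY1, also a direct target, had 23.2, 28.7 and 24.3 FPKM in LATS dKO and 83.7, 82.2 and 87.7 FPKM in YAP/TAZ dKO (-1.70, SE 0.08). The ligands JAG1 and DLL1 were lower by -1.29 and -1.19, and the receptor NOTCH2 was higher by 0.56 while NOTCH3 was lower by -0.87. Outside the shifted stretches 8 of 12 were lower and 1 higher, beside 2887 lower and 2007 higher of all 10739 genes there.

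HOX genes moved in both directions. Of 30 tested, 7 were higher in LATS dKO and 12 lower (median -0.13), against 9 and 12 without LATS dKO replicate 1 and 10 and 11 after the GC correction. HOXB9 had 9.70, 11.7 and 11.5 FPKM in LATS dKO and 24.7, 25.9 and 25.5 FPKM in YAP/TAZ dKO (-1.15, SE 0.06), and HOXB8 and HOXB6 were lower by -1.77 and -1.10. HOXA11 had 4.24, 3.95 and 4.51 FPKM in LATS dKO and 0.169, 0.0863 and 0.0610 FPKM in YAP/TAZ dKO (2.24, SE 0.06). HOXC10 was higher as well (2.06), although its neighbour HOXC9 was lower (-0.82). Of the 7 higher members 6 belong to the HOXA cluster, which lies in a shifted stretch of chromosome 7. Outside such stretches 1 of 21 was higher and 12 were lower, beside 2007 higher and 2887 lower of all 10739 genes there.

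CCND1 and CCND2 were lower in LATS dKO. CCND1, the cyclin that starts G1, had 10.5, 28.9 and 24.5 FPKM in LATS dKO and 121.2, 115.7 and 125.5 FPKM in YAP/TAZ dKO (-2.56, SE 0.25, limma adjusted p = 1.01e-07). LATS dKO replicate 1 was the lowest library, and without it the difference was -2.14. CCND2 had 3.41, 2.64 and 3.21 FPKM in LATS dKO and 10.1, 10.3 and 9.53 FPKM in YAP/TAZ dKO (-1.43, SE 0.11). WT stood with LATS dKO at both, with 18.4 ± 0.301 and 3.57 ± 0.441 FPKM. CCND3 was not called (-0.10). MYC averaged 77.3 FPKM in LATS dKO and 145.7 FPKM in YAP/TAZ dKO (-0.91), and MXD4, which opposes MYC at its sites, 9.08 and 64.2 FPKM in that order (-2.76).

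Of 31 genes of G1 and S phase, 7 were higher in LATS dKO and 11 lower (median -0.08), against 6 and 14 without LATS dKO replicate 1. Of 29 genes of G2 and mitosis, 14 were higher and 3 lower (median 0.28). CCNB1, the mitotic cyclin, had 350.3, 318.1 and 340.2 FPKM in LATS dKO and 157.4, 146.0 and 156.4 FPKM in YAP/TAZ dKO (1.13, SE 0.06), in a shifted stretch of chromosome 5. CDC25B, a phosphatase that turns on CDK1 and lies in no such stretch, averaged 62.4 FPKM in LATS dKO and 24.3 FPKM in YAP/TAZ dKO (1.32). The markers MKI67, TOP2A and CDK1 were not called, with differences of -0.06, -0.02 and 0.07. Outside the shifted stretches 10 of 23 genes of G2 and mitosis were higher and 2 lower, and without LATS dKO replicate 1 the list had 13 higher and 6 lower.

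Genes that follow growth factor signals were mixed. Of 16 outputs of ERK signalling, 6 were higher and 8 lower (median -0.41), and of 18 immediate-early genes 5 were higher and 6 lower (median -0.11). Without LATS dKO replicate 1 the ERK list had 7 higher and 8 lower (median -0.26), and the immediate-early list 6 and 6, with a median of the other sign (0.16). ATF3 had 52.5, 45.4 and 48.2 FPKM in LATS dKO and 14.6, 18.7 and 16 FPKM in YAP/TAZ dKO (1.52, SE 0.11). IER3 (1.61) and FOSL1, a subunit of AP-1 (1.38), were higher, BTG2 (-1.08) was lower, and JUN and FOSL2 were not called. SPRY2, a feedback inhibitor of the pathway, was lower (-0.58). The median of the ERK list turned to 0.08 outside the shifted stretches.

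The other genes of the 15 lowest had little in common. EMC10, a subunit of a complex that inserts proteins into the endoplasmic reticulum, had 0.0816, 0.0878 and 0.0698 FPKM in LATS dKO and 26.6, 16.8 and 18.0 FPKM in YAP/TAZ dKO (-4.29, SE 0.28). WT had 23.2 ± 0.440 FPKM, so that LATS dKO was the line that stood apart. PLTP, which transfers phospholipids between lipoproteins, and RAMP1, a co-receptor for neuropeptides, showed the same order, with WT at 10.5 and 9.95 FPKM. The opposite was seen for RFX7, a transcription factor, which was listed at 0, 0 and 0.0101 FPKM in LATS dKO and at 0 in every WT library on the stiff gel. In YAP/TAZ dKO RFX7 had 6.39, 6.41 and 7.13 FPKM (-2.93, SE 0.05). PUDP, a phosphatase, likewise averaged 0.0694 FPKM in LATS dKO and 0.0422 FPKM in WT but 8.88 FPKM in YAP/TAZ dKO (-3.20). TRIB2, CTNNA3, CCBE1, EBF2 and MDGA1 were lower by -2.81 (MDGA1) to -3.13 (TRIB2).

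WT cells on the stiff gel lay between the lines for 456 of the 539 genes at least 2-fold higher in LATS dKO, nearer to LATS dKO for 290 and nearer to YAP/TAZ dKO for 166. For 66 of the 539 WT was at or above both lines, and for 17 at or below both. Of the 446 lower genes WT lay between for 392, nearer to LATS dKO for 265 of them. These genes were picked for a wide gap between the lines, which by itself makes a WT value between them more likely. The share over all genes tested was not taken.

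Few genes had a gap between the lines that differed detectably between the gels. The difference of the gaps, stiff minus soft, was called for 13 of 14383 genes (0.0904%), 5 of them positive and 8 negative, by limma in the same fit, and 1170 genes had an unadjusted p below 0.05. The count was 6 to 25 with 1 library of the 12 left out, and 25 without LATS dKO replicate 3 on the stiff gel. Without LATS dKO replicate 1 it was 10, and 8 of the 13 genes were among them. ANXA1 had the largest, 1.06 (SE 0.13, limma adjusted p = 0.000933). Its level was 38.4 ± 3.38 FPKM in LATS dKO and 0.667 ± 0.0621 FPKM in YAP/TAZ dKO on the stiff gel, and 50.4 ± 1.81 FPKM in LATS dKO and 3.54 ± 0.392 FPKM in YAP/TAZ dKO on the soft gel (SD, n = 3 each). WT had 25.2 FPKM on each gel. S100A10 had a difference of 0.55 (SE 0.06, limma adjusted p = 0.000933), with 452.3 ± 13.6 FPKM in LATS dKO and 88.2 ± 1.41 FPKM in YAP/TAZ dKO on the stiff gel. On the soft gel it had 440.0 ± 12.2 FPKM in LATS dKO and 125.6 ± 3.15 FPKM in YAP/TAZ dKO. For both genes the YAP/TAZ dKO libraries were lower on the stiff gel than on the soft one, and these 2 of the 13 genes were called under every alternative.

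VIM, the intermediate filament protein vimentin, had 233.6 ± 18.9 FPKM in LATS dKO and 136.5 ± 2.55 FPKM in YAP/TAZ dKO on the stiff gel. On the soft gel VIM had 220.5 ± 2.87 FPKM in LATS dKO and 180.7 ± 5.41 FPKM in YAP/TAZ dKO, which makes a difference of the gaps of 0.48 (SE 0.07). MINK1, a kinase of the MAP4K family that acts above LATS, turned round: it had 27.8 ± 1.76 FPKM in LATS dKO and 42.0 ± 3.50 FPKM in YAP/TAZ dKO on the stiff gel. On the soft gel it had 38.6 ± 2.16 FPKM in LATS dKO and 32.9 ± 3.48 FPKM in YAP/TAZ dKO, a difference of the gaps of -0.81 (SE 0.11, limma adjusted p = 0.00243). After a correction for GC content the p of MINK1 was 0.205, and CHKB lost its call there too, at 0.302. Among the classical targets CTGF, CYR61, ANKRD1 and AMOTL2 had differences of the gaps of 0.22, 0.25, 0.49 and 0.31, none called, although a p above the threshold does not show equal gaps. The number of calls depended on which libraries shared the fit, from 5 in the 12 libraries of both lines alone to 637 without the libraries with a GC skew, LATS dKO replicate 1 and RAP2 tKO replicate 3 on 40 kPa.

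**Figure D4:**
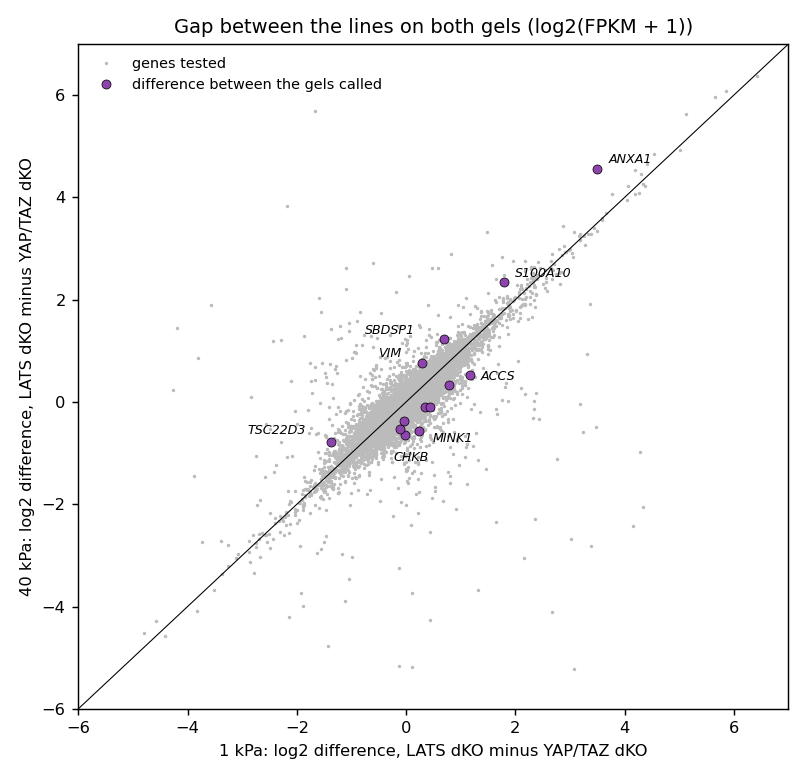
Log2 difference, LATS dKO minus YAP/TAZ dKO, on the 1 kPa gel (x axis) and on the 40 kPa gel (y axis) for each of the 14383 genes tested. Purple points are the 13 genes whose difference between the gels was called, 8 of them labelled, and the line marks equal gaps. Most genes lie along the line.

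The difference between the lines also followed position on the chromosomes. Tested genes were taken in windows of 100 neighbours, moved by 25 genes, and 88 of 423 windows had a median difference of at least 0.3 in size, 66 positive and 22 negative. The widest was on chromosome 3 (hg19, 138153428 to 178578193), with a median of 0.79 on the stiff gel and 0.73 on the soft gel, where 86 of 100 genes were called higher in LATS dKO and 4 lower. Set against WT, the median there was 0.02 in LATS dKO and -0.76 in YAP/TAZ dKO. A window on chromosome 5 (52285156 to 79838382) had a median of 0.68, with 0.11 in LATS dKO and -0.59 in YAP/TAZ dKO against WT. Runs of this kind, low in YAP/TAZ dKO, were also seen on chromosomes 7, 11 and 14. A run on chromosome 12 (58176372 to 115121969) had medians of 0.32 to 0.42. Against WT it stood at 0.1 to 0.19 in LATS dKO and -0.26 to -0.24 in YAP/TAZ dKO. LGR5 lies in that run although its own difference was negative. On the X chromosome the windows from 73040486 to 153793261 had medians of 0.35 to 0.49, and here it was LATS dKO that differed from WT, by 0.43 to 0.59. The start of chromosome 1, from 860260 to 60392462, had negative medians of -0.42 to -0.31, with LATS dKO at -0.29 to -0.23 against WT. The cause of these shifts was not tested.

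**Figure D5:**
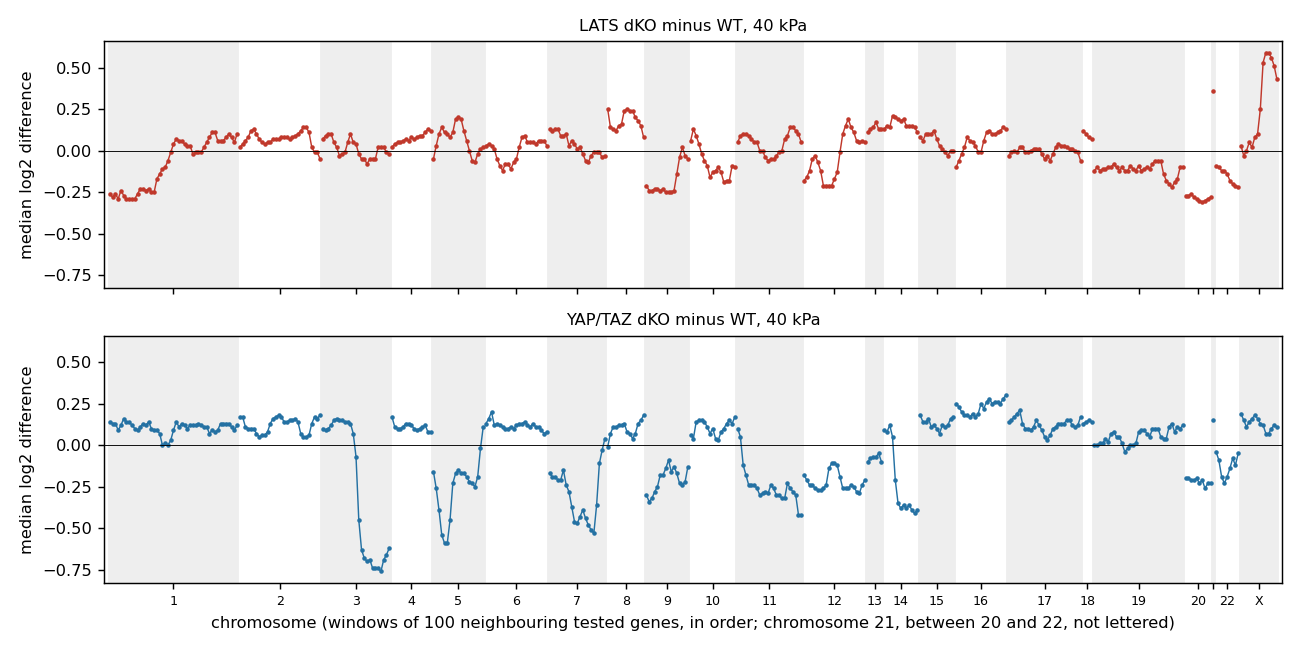
Median log2 difference from WT on the 40 kPa gel in windows of 100 neighbouring tested genes, in chromosome order, for LATS dKO (upper panel) and YAP/TAZ dKO (lower panel). Both panels share the WT libraries. The steps on chromosomes 3, 5, 7, 11 and 14 are in the lower panel, and the step on X is in the upper one.

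The 88 windows hold 3644 of the genes tested, of which 2326 were called. Of the 10739 genes outside them 4894 were called, 2007 higher and 2887 lower in LATS dKO, so that 41.0% of the calls were higher, and 638 differed by 2-fold or more. Since the windows were picked on this same difference, leaving them out removes calls by construction. As 66 windows were positive and 22 negative, it also tilts the calls that remain toward lower, in the gene lists too. WWTR1, AMOTL2, YAP1, TEAD1, CAV1, ITGA1, HOXA11 and LGR5 lie inside them, and CTGF, CYR61, ANKRD1, AP1M2, KRT8, PTRF, SLC7A5, NEFL and DDIT4 outside. Of the 19 tested YAP/TAZ-TEAD targets 14 lie outside, with 10 higher, 1 lower and a median of 1.05.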

How the data were processed

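Poly(A) RNA of 24 libraries was sequenced from a stranded kit, per the labels' protocols. STAR 2.4.2a, Cufflinks 2.2.1 and hg19 are named in the submitters' processing notes, while the sources used here do not give the gene annotation, whether counting used strand, or how reads with several places were handled. Without a known strand setting, overlapping, antisense and near-identical genes cannot be separated with certainty. The authors deposited 1 table of FPKM values per library, with a status and confidence bounds per gene, per the file headers. FPKM values of entries sharing a symbol were summed, and 92 symbols with another status than OK or LOWDATA were left out, 63 of which would have passed the filter. All 37 mitochondrial entries were listed at 0.

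FPKM hold no counts. Fragments behind a value were taken from the width of its deposited confidence bounds, and the depth from 198 to 223 genes a library with 20 to 200 fragments. This treats the whole width as counting noise, so implied fragments can be too few where the bounds are wide for another reason. Folds are given only where each library of the lower group had at least 10 fragments. log2(FPKM + 1) was fitted with limma 3.58.1 (R 4.3.3), with a mean for each of the 8 groups of 3 among the 24 libraries, leaving 16 degrees of freedom, and a mean-variance trend, and tested two-sided. The same fit gave the difference of the gaps between the gels. The script was tested on simulated data. GC content came from the longest GENCODE transcript of a gene and was had for 98.7% of the genes tested. Figures were drawn with matplotlib 3.10.9.

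The members and the 36 gene lists were chosen with earlier results of these data known. Named genes are the 4 edited genes, the tested target genes, the 15 highest and 15 lowest genes (called with and without LATS dKO replicate 1, not overlapping, at a mean FPKM of at least 5, clone and small RNA names left out), up to 5 called members of each list by p, and up to 5 genes in each direction for the gels. Other list members are named only to describe what a count holds, and were chosen after their values were seen. No sample was left without a group, and no 2 libraries held identical values. The index set of each library is unknown from the sources used here, and batches were therefore not tested. A few genes that the rule names are not reported here, but stay in every count.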

Additional observations from a re-analysis of the deposited data

Results flagged for a closer look

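These genes stood out because the gap between LATS dKO and YAP/TAZ dKO differed between the stiff and the soft gel, by the limma test of the difference of the gaps, stiff minus soft, in log2(FPKM + 1). ANXA1 (1.06) and S100A10 (0.55) had wider gaps on the stiff gel, and so did VIM (0.48).

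SBDSP1, a transcribed pseudogene, had 41.7 ± 3.01 FPKM in LATS dKO and 17.3 ± 0.667 FPKM in YAP/TAZ dKO on the stiff gel, and 32.8 ± 0.849 and 19.9 ± 1.14 FPKM in that order on the soft gel (0.53, limma adjusted p = 0.0196, and 0.0539 without LATS dKO replicate 1). It may share fragments with its parent gene. TSC22D3, the glucocorticoid-induced leucine zipper, averaged 1.81 FPKM in LATS dKO and 3.82 FPKM in YAP/TAZ dKO on the stiff gel, and 1.64 and 5.87 FPKM in that order on the soft gel (0.61, limma adjusted p = 0.0475, and 0.0753 without LATS dKO replicate 1). Its gap was thus narrower on the stiff gel.

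MINK1 (-0.81) and CHKB (-0.62) were lower in LATS dKO on the stiff gel alone. CHKB, a choline kinase, had 18.7 ± 1.41 FPKM in LATS dKO and 29.9 ± 2.94 FPKM in YAP/TAZ dKO on the stiff gel, and 22.4 ± 0.992 and 22.8 ± 1.17 FPKM in that order on the soft gel. TMCO6 (-0.55) averaged 18.4 FPKM in LATS dKO and 19.8 FPKM in YAP/TAZ dKO on the stiff gel and 24.9 and 18.0 FPKM on the soft gel. ACCS (-0.63) averaged 6.27 FPKM in LATS dKO and 4.02 FPKM in YAP/TAZ dKO on the stiff gel and 9.02 and 3.46 FPKM on the soft gel, and its limma adjusted p of 0.0475 ranged from 0.0201 to 0.183 over the alternatives, with 0.0744 without LATS dKO replicate 1.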

How the results depend on the processing

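The count of 7220 genes called between LATS dKO and YAP/TAZ dKO on the stiff gel ranged from 6431 to 7096 when each of the 6 libraries was left out in turn, with 3272 to 3575 higher, 3117 to 3521 lower and 961 to 1103 at 2-fold or more. It was 5514 in a fit of the 6 libraries alone, 7227 after median-ratio scaling, 7851 after the GC correction, 8253 with no filter and 8145 without both GC-skewed libraries, LATS dKO replicate 1 and RAP2 tKO replicate 3 on 40 kPa. The 985 genes at 2-fold or more became 1518 with a pseudocount of 0.1 in place of 1 and 584 where all 6 libraries had to reach an FPKM of 1. Outside the shifted chromosome windows, an alternative added after the data were seen, 2007 genes were higher and 638 differed by 2-fold or more.

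The 13 genes called for the difference between the gels were the least stable count. Leaving out each of the 12 libraries in turn gave 6 to 25, with 25 without LATS dKO replicate 3 on 40 kPa, 6 and 7 without LATS dKO replicates 1 and 2 on 1 kPa, 7 without YAP/TAZ dKO replicate 3 on 1 kPa and 7 without YAP/TAZ dKO replicate 2 on 40 kPa. The count was 5 in the 12 libraries of both lines alone and 637 without both GC-skewed libraries, 440 positive and 197 negative, with all 13 among them. Added after the data were seen, it was 31 without RAP2 tKO replicate 3 on 40 kPa and 54 in the 12 libraries less LATS dKO replicate 1. The cause was not tested.

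Same-numbered libraries of the lines had deviations correlated at 0.082, 0.108 and 0.018, and LATS dKO replicate 3 correlated best with YAP/TAZ dKO replicate 2, at 0.028, so the numbers were not taken to pair them. The fit with the replicate block called 7170 genes on the stiff gel, and 7807 with the GC correction added, where the gels' difference gave 8.

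Of the 178 named genes, 174 were called on the stiff gel and 170 in every setting. The shallowest library, LATS dKO replicate 1, limits low genes most. Values of YAP/TAZ dKO for ANKRD1, KRT19 and AP1M2 rest on 0 to 5 implied fragments a library, so no fold is given, and those for CTGF on 10 to 19, which leaves its fold imprecise.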

Other observations

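Several gene groups outside the Hippo and adhesion genes are given by their counts, LATS dKO against YAP/TAZ dKO on the stiff gel. Of all genes tested 50.2% were called. Shares of 53.8% (chaperones), 56.2% (glycolysis), 55.6% (ribosomal proteins), 45.8% (interferon) and 52.4% (p53 targets) are near that background. So are those of the annexins and S100 proteins (53.8%), the integrins and focal adhesions (55.6%) and the mesenchymal genes (56.2%). Shares were somewhat higher for genes of G1 and S phase (58.1%), WNT (58.3%), G2 and mitosis (58.6%) and cholesterol and fatty acid synthesis (59.4%). Such a share alone is not a result about a group. It leaves out direction, for which the background is 25.2% higher and 25.0% lower. Of 32 genes of cholesterol and fatty acid synthesis, 14 were higher in LATS dKO and 5 lower (median 0.17), against 14 and 4 without LATS dKO replicate 1. SC5D, FDFT1 and FADS2 stood at 1.29, 1.04 and 1.03 and SQLE at -0.65. SC5D lies in a shifted chromosome window, and outside such windows 7 of 22 members were higher and 4 lower (median 0.11). Of 26 chaperones and unfolded protein genes, 9 were higher and 5 lower (median 0.06), against 9 and 4 without LATS dKO replicate 1 (median -0.05). The chaperone HSPA8 averaged 1575 FPKM in LATS dKO and 747.1 FPKM in YAP/TAZ dKO (1.07), and HSP90AA1 averaged 1023 and 548.7 FPKM in that order (0.89); both lie in shifted chromosome windows. Of 32 genes of glycolysis and hypoxia, 7 were higher and 11 lower (median -0.11), against 7 and 9 without LATS dKO replicate 1, and the glucose transporter SLC2A3 stood out at 18.4 FPKM in LATS dKO and 2.39 FPKM in YAP/TAZ dKO (2.51). Of 36 cytosolic ribosomal protein genes, 3 were higher and 17 lower (median -0.23), against 3 and 15 without LATS dKO replicate 1, and the 3 higher ones, RPL10, RPL6 and RPS23, all lie in shifted windows. Outside these windows 0 of 25 were higher and 11 lower (median -0.19), where the median of all genes was -0.07.

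Of 24 interferon-response genes, 8 were higher and 3 lower (median 0.02), against 7 and 3 without LATS dKO replicate 1. BST2 and IFITM3, which block virus entry or release, were higher (4.08 and 2.71), while IRF1 and ISG15 were not called. Of 36 receptor tyrosine kinase genes and ligands, 15 were higher and 9 lower (median 0.14), against 16 and 6 without LATS dKO replicate 1. Outside the shifted windows 8 of 28 were higher and 9 lower, with a median of the other sign (-0.11), near the -0.07 of all genes there. The ligand NRG1 averaged 5.39 FPKM in LATS dKO and 0.214 FPKM in YAP/TAZ dKO, with 0.0873 FPKM in WT (2.4). Of 47 axon guidance genes, 11 were higher and 22 lower (median -0.19), of 13 cadherins 3 and 5, of 14 IGF-binding and related genes 7 and 2, of 21 TGF-beta and BMP genes 6 and 7, and of 21 p53 targets 3 and 8. Without LATS dKO replicate 1 the axon guidance genes had 13 higher and 20 lower, the IGF genes 7 and 1, and the TGF-beta and BMP genes 6 and 5. The median of the cadherins was 0.04 there, in place of -0.15. Outside the shifted windows 4 of 29 axon guidance genes were higher and 16 lower (median -0.37). BMP4 averaged 25.1 FPKM in LATS dKO and 5.53 FPKM in YAP/TAZ dKO (1.99), in a shifted window of chromosome 14. CDKN1A, a p53 target that halts the cycle, was lower in LATS dKO (-0.54) and MDM2 was not called.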
